A study of Mus musculus with 15 samples.

Results

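The opioid receptor family was read from single-nucleus RNA-seq of mouse dorsal hippocampal formation (dHF) as the rows of its 4 genes, Oprm1, Oprd1, Oprk1 and Oprl1, out of 32285 genes counted in each library. Oprm1, Oprd1 and Oprk1 encode the μ, δ and κ opioid receptors, and Oprl1 encodes the nociceptin receptor. The rule names the genes and has no threshold on a measured value, although earlier results of these data were known when it was set.

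All 4 receptors are seven-transmembrane proteins that couple to inhibitory Gi/o proteins, which lower adenylyl cyclase activity, open inwardly rectifying potassium channels and close presynaptic calcium channels. Their ligands are cut from precursor proteins: enkephalins from the Penk product, dynorphins from Pdyn, β-endorphin from Pomc and nociceptin from Pnoc. In the hippocampus μ and δ receptors are best known on GABAergic interneurons, where their activation quiets inhibition, and the medial habenula and the striatum are classical sites of dense opioid receptor binding.

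The study asked whether reproductive experience (RE) leaves a lasting mark on the dHF and whether stress after birth changes it. Nuclei came from 15 adult female wild-type C57BL6/J mice. They were 6 never pregnant mice (NP), 4 dams that had mated, given birth, nursed and weaned their pups (control RE) and 5 dams that in addition had limited nesting material and daily separation from their pups during lactation (stress RE). One library was made per mouse from 4 bilateral micropunches, and mice are named here by their label number. The labels give 3 batches: batch 1 held 2 NP and 1 stress RE mice and no control RE mouse, while 2 mice of each group were in batch 2 and 2 of each in batch 3. The study's methods describe processing batches that each held all groups, which batch 1 does not match. Whether the label batches are those batches is not given. The groups share their control mice across comparisons, and the mouse is the replicate throughout.

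Libraries held 5789 to 12738 barcodes and the median nucleus of a library held 3993 to 8754 unique molecular identifiers (UMIs, each standing for 1 captured RNA molecule). After filters and doublet removal 123901 nuclei remained, of which 115002 fell in 30 classes named from marker genes and 8899 stayed unnamed. Any pair of libraries shared 6 to 47 barcode sequences. A level is given as CPM, the UMIs of a gene in the usual scaling to the total UMIs of the summed nuclei of a class in a mouse, for mice with at least 10 nuclei of that class. The punches are labelled dorsal hippocampus, and all 6 of the dentate granule markers were detected in the granule clusters, but they also held thalamic, habenular, cortical and striatal types in amounts that differed between mice. The habenula-like cluster, for example, held 978 nuclei of NP, 53 of control RE and 165 of stress RE mice, and the clusters like striatal projection neurons (SPN) held 567, 162 and 1195.

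The genes lie on 4 chromosomes, given here in GRCm38 coordinates with the GENCODE annotation. Oprm1 (ENSMUSG00000000766) spans chr10:6758506-7038198 on the plus strand, 279.693 kb in all. Oprd1 (ENSMUSG00000050511) spans chr4:132110726-132144486 on the minus strand, Oprk1 (ENSMUSG00000025905) spans chr1:5588466-5606131 on the plus strand, and Oprl1 (ENSMUSG00000027584) spans chr2:181715016-181720985 on the plus strand. All 4 are protein-coding, and levels are not compared between them because their lengths differ. Oprd1, Oprk1 and Oprl1 overlap no other annotated gene. Oprm1 overlaps a pair of genes of the opposite strand, Gm10945 and Ipcef1, the latter encoding a protein that interacts with exchange factors of Arf GTPases. The shared stretch with Ipcef1, chr10:6885796-7038198, is 152.403 kb long, or 54.5% of Oprm1 and 91.4% of Ipcef1. The strand setting of the counting is not given in the sources used here, so reads of Oprm1 and Ipcef1 from that stretch cannot be told apart with certainty.

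The RefSeq promoter table for GRCm38.p6 held windows of 250 bases upstream of the transcript starts for 3 of the 4 genes. The windows of Oprd1 and of the first Oprl1 start are shown because they differ in base composition. GC boxes, the letters GGGCGG or CCGCCC on the strand shown, are in capitals, both windows being printed 5′ to 3′ in the direction of the gene.
Oprd1, chr4:132144487-132144736, minus strand: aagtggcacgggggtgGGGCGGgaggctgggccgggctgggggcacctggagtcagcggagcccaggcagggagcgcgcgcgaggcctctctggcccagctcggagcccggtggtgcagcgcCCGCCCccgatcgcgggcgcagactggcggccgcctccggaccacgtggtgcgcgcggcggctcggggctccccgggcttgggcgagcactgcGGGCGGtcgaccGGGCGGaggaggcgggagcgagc
Oprl1, chr2:181714766-181715015, plus strand: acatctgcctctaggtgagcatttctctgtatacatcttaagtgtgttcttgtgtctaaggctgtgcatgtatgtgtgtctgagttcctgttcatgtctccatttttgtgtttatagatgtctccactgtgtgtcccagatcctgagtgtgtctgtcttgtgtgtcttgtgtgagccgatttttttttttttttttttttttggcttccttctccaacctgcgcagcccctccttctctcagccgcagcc

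The Oprd1 window was 80% G or C and held 34 CpG pairs and 4 GC boxes, which placed its GC content at percentile 98.8 of 32851 promoter windows. The Oprl1 window was 44.4% G or C with 3 CpG pairs and no GC box, and the first Oprm1 window was 45.6% with 0 CpG pairs. The windows of later starts were higher, at 54.8% and 48.8% for Oprl1, with 1 and 2 CpG pairs. Those of Oprm1 were at 50% and 50.8%, each with 4 CpG pairs, and none of these later windows held a GC box. Of all windows, 32.7% held a GC box, and the medians were 52.4% GC and 6 CpG pairs. A match describes these letters and shows no binding.

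Oprm1, the μ receptor gene, was counted at 37314 UMIs, and its level was highest in nuclei like those of the habenula. All 6 habenula markers (Tac2, Gpr151, Pou4f1, Chrnb4, Chrna3 and Nwd2) were detected in that cluster. There Oprm1 ran in NP mice from 281 CPM at the lowest, through a median of 371, to 610 at the highest, stood at 302 and 312 CPM in the 2 control RE mice with enough nuclei, and at 201, 322, 336 and 445 CPM in 4 stress RE mice. The mean was 352 CPM ± 102 (SD, n = 12). Oprm1 was higher here than in the class that followed, Lamp5 interneuron-like nuclei, in 12 of 12 mice, and the ranges of these classes did not overlap. Of the other named classes, cortical-type nuclei reached into its range, with 242.5 CPM at the highest. The mouse at 610 CPM, NP 35, had only 16 such nuclei.

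Below the habenula-like class the order of Oprm1 was less clear, because each class overlapped its neighbour in range. Lamp5 interneuron-like nuclei, a neurogliaform type, held 106 CPM ± 26.4 (n = 15). Pvalb interneuron-like nuclei, the fast-spiking type, held 88.7 ± 32.03 (n = 12), Cck interneuron-like nuclei 80.8 ± 26.4 (n = 15) and Sst interneuron-like nuclei 50.4 ± 13.3 (n = 15). The GABAergic neurons of thalamic, pretectal or hypothalamic type held 66.1 ± 19.2 (n = 15). Drd2 and Drd1 SPN-like nuclei held 24.2 ± 10.0 and 23.4 ± 19.8 CPM (n = 8 each). All these are inhibitory neurons, and the excitatory pyramidal classes of the hippocampus were low: 2.63 ± 1.45 CPM in CA3-like and 1.83 ± 1.02 in CA1-like nuclei (n = 15 each).

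**Figure D1:**
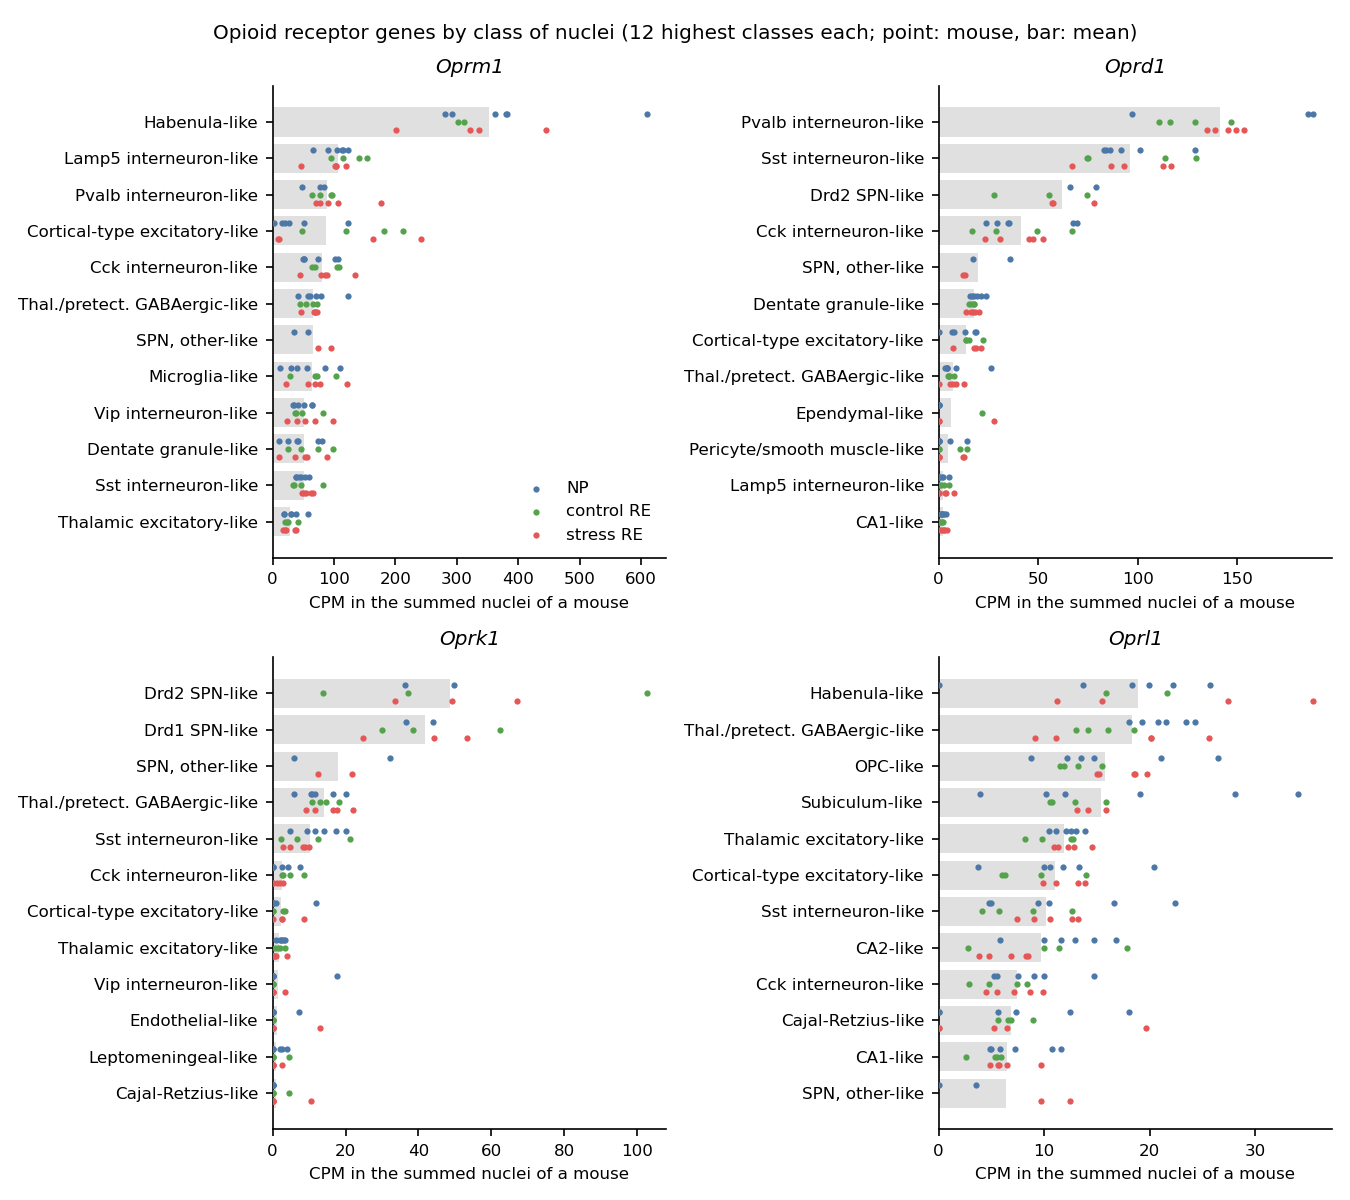
Level of each receptor gene in the 12 classes with its highest mean, 1 panel per gene. The horizontal axis is CPM in the summed nuclei of a mouse, each point is a mouse with at least 10 nuclei of the class, colours give the group, and the grey bar is the mean over mice; the habenula-like points of Oprm1 lie from 201 to 610 CPM, above every Lamp5 interneuron-like point.

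Outside inhibitory neurons Oprm1 UMIs were found in dentate granule-like nuclei (50.8 CPM ± 27.6, n = 15), microglia-like nuclei (63.6 ± 33.05, n = 15) and nuclei like layered cortical excitatory neurons (87.4 ± 84.3, n = 14). Thalamic excitatory-like nuclei held 28.97 CPM ± 11.53 of Oprm1 (n = 15), with only 3.97 ± 1.63 of Ipcef1. They carried 3355 of the Oprm1 UMIs, or 8.99% pooled. Granule-like nuclei, on average 24.7% of the nuclei of a mouse, held 16277 of the 37314 Oprm1 UMIs, or 43.6%, over all mice pooled. The habenula-like class, on average 1.09% of the nuclei, held 11.3%. Shares of nuclei take no account of depth, and by level the whole punch held 38.3 ± 12.9 CPM of Oprm1 (n = 15). Both shares of Oprm1 UMIs differed widely between mice, from 8.95% to 71.7% for granule-like nuclei and from 0% to 43.6% for habenula-like nuclei. The habenula-like share was the larger one in NP 31 (43.6% against 8.95%), NP 63 (29.1% against 19.3%) and stress RE 70 (17.5% against 11.9%). The granule-like, microglia-like and cortical-type classes were also those with most Ipcef1: 69.1 CPM ± 8.18 in granule-like, 109 ± 26.4 in microglia-like and 97.5 ± 75.5 in cortical-type nuclei, against 32.5 ± 24.2 in habenula-like and 12.4 ± 9.42 in Pvalb interneuron-like nuclei. Gm10945 was near 0, with 101 UMIs in all.

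The ratio of Oprm1 to Ipcef1 differed by class. Of 26 classes with at least 20 Ipcef1 UMIs, 14 had fewer Oprm1 than Ipcef1 UMIs, and over the 26 the ratio ran from 0.584 to 13.8 Oprm1 UMIs per Ipcef1 UMI. The 14 included microglia-like (0.584), CA1-like (0.715), astrocyte-like (0.722), dentate granule-like (0.756), oligodendrocyte-like (0.795), CA3-like (0.868) and cortical-type nuclei (0.889). Habenula-like nuclei had 13.8, thalamic excitatory-like nuclei 6.95, Pvalb interneuron-like 6.35, Drd1 SPN-like 5.67, Sst interneuron-like 5.42, Cck interneuron-like 4.40 and Lamp5 interneuron-like 1.97. Whether part of the Oprm1 count in the 14 classes came from Ipcef1 transcripts was not tested, since the deposited counts carry no strand.

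**Figure D2:**
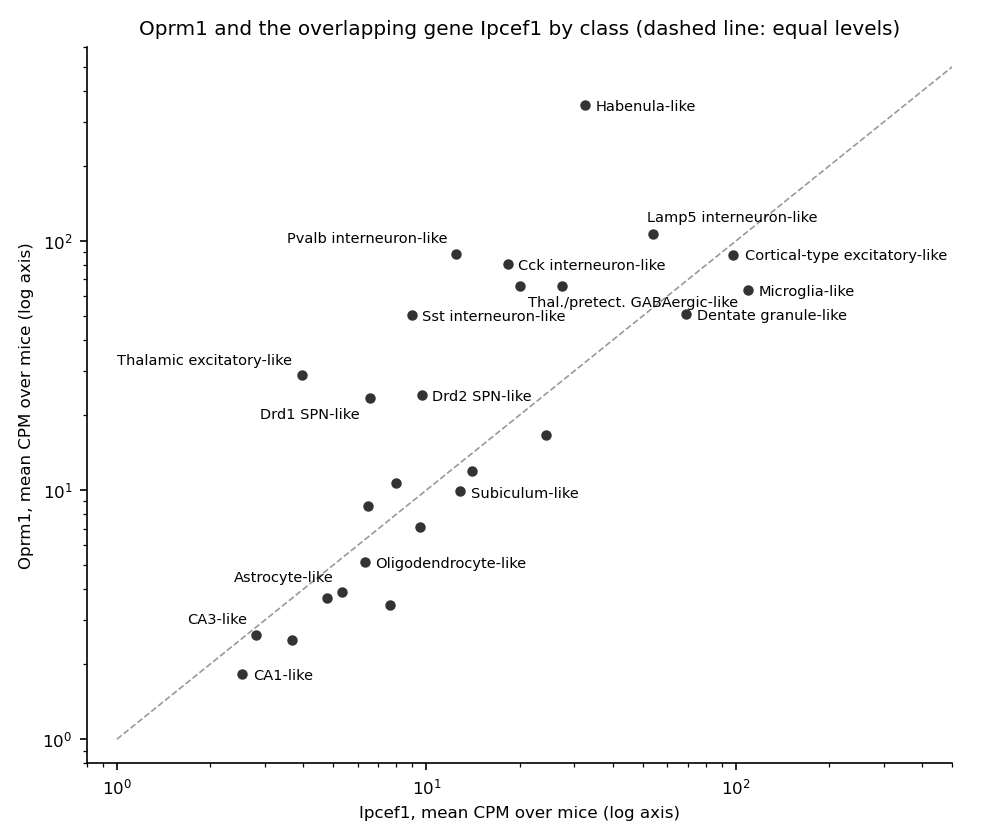
Mean Oprm1 level against mean Ipcef1 level over mice for the 26 classes with at least 20 Ipcef1 UMIs, in CPM, both axes logarithmic. Each point is a class and the dashed line marks equal levels; interneuron-like, SPN-like, thalamic and habenula-like classes lie above the line, and granule-like, microglia-like and glial classes lie on or below it.

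The spread of Oprm1 between mice differed by class. In granule-like nuclei it ran from 10.4 to 79.8 CPM in NP (median 40.9, n = 6), was 25.5, 47.0, 74.8 and 99.2 CPM in control RE, and was 11.0, 35.7, 53.0, 56.1 and 88.1 CPM in stress RE, so every group held both low and high mice. The biological coefficient of variation of edgeR was 55.8% for Oprm1 in these nuclei, rank 646 of 16731 genes tested, where the median gene had 16.6%. It was 46.9% in microglia-like nuclei, rank 216 of 9879, and highest in cortical-type nuclei at 87.5%, rank 57 of 9196. CA1-like and CA3-like nuclei, where the level was low, had 40.99% and 41.3%. Oprd1 in granule-like nuclei had 16.2%, and Oprm1 in Sst interneuron-like nuclei 19.2%, where the median gene of that class had 17.4%.

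The same mice were high or low in Oprm1 in granule-like and in microglia-like nuclei. Across 15 mice Pearson's r between these classes was 0.937 and Spearman's rho 0.943 (permutation test, p = 1e-05 for both, the smallest they can give, adjusted p = 0.000125), r was 0.926 without the 2 farthest mice, and it was 0.823 within batch 2 and 0.965 within batch 3. Batch 1 held too few mice for a value. Oprm1 in granule-like nuclei had r of -0.11 with oligodendrocyte-like, -0.33 with Sst interneuron-like and 0.275 with Cck interneuron-like nuclei (adjusted p = 0.821, 0.450 and 0.527, permutation test).

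Opposite-strand genes here are annotated genes that overlap one of the other strand and have a symbol ending in os or os and digits. The summed level of these 260 genes was a further measure that moved with Oprm1. In granule-like nuclei its r with Oprm1 was 0.993 (rho 0.979, adjusted p = 0.000125 for both, permutation test, n = 15), 0.990 without the 2 farthest mice, 0.995 in batch 2 and 0.999 in batch 3. In Lamp5 interneuron-like nuclei r was 0.732 (rho 0.786, adjusted p of r = 0.00645), 0.753 without the 2 farthest mice, and 0.837 and 0.621 within batches 2 and 3. In the whole punch it was 0.772 (rho 0.818, adjusted p of r = 0.00606), 0.742 without the 2 farthest mice, but 0.359 within batch 2 and 0.952 within batch 3, so the pooled value did not hold in batch 2. In thalamic excitatory-like nuclei and the thalamic, pretectal or hypothalamic GABAergic class Oprm1 had no relation past the adjusted threshold of 0.05, and neither had Oprd1, Oprk1 or Oprl1 in any of theirs. These 25 relations were chosen after values had been seen, and Benjamini-Hochberg adjustment covers them all. The groups overlapped in the summed level of the whole punch, with 1645 CPM ± 537 in NP mice, 1906 ± 544 in control RE mice and 1692 ± 546 in stress RE mice, and what set it in each mouse was not tested.

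**Figure D3:**
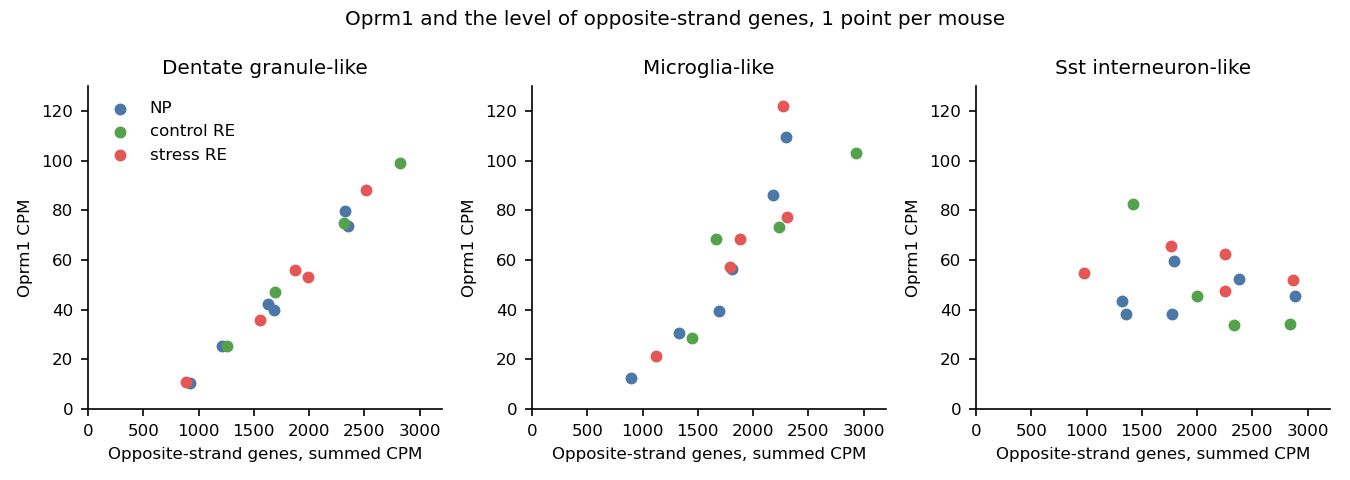
Oprm1 level (CPM) against the summed level of 260 opposite-strand genes (CPM) in the same nuclei, 1 point per mouse, for dentate granule-like, microglia-like and Sst interneuron-like nuclei, coloured by group. Granule-like points follow a line from 10.4 to 99.2 CPM of Oprm1 with all groups spread along it. The relation was not computed for the other classes shown.

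Within classes Oprm1 also varied by cluster. Granule-like nuclei split into a cluster of 16010 nuclei with Trpc6 among its leading genes and one of 15361 with Dsp and Chst9 among them. Oprm1 was at 63.4 CPM in the first and 38.6 in the second, higher in the first in 15 of 15 mice, and Ipcef1 moved alike, pooled 88.9 against 51.7 CPM. Drd1 SPN-like nuclei split further apart: a small cluster of 140 nuclei, with Tac1 and Pde1c among its leading genes and 48.6% of its nuclei from stress RE 75, held 195 CPM of Oprm1, and the larger one of 855 held 7.68, in the 4 mice with enough nuclei of both. Its range was 138 to 292 CPM against 3.06 to 11.7. In the thalamic, pretectal or hypothalamic GABAergic class a cluster with Otx2os1 and Rxfp1 among its leading genes held 132 CPM of Oprm1. One led by Ttn held 20.1, lower in 11 of 11 mice. The receptor genes were not used for clustering, but clusters were built from the same nuclei, so these differences are descriptions without a test.

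Oprd1, the δ receptor gene, was counted at 9691 UMIs and was highest in Pvalb interneuron-like nuclei. Its level there was 97.0, 185 and 188 CPM in 3 NP mice, 111, 116, 129 and 147 CPM in control RE, and 135, 139, 146, 150 and 154 CPM in stress RE. The groups overlapped, and the mean was 141 CPM ± 27.2 (n = 12). Sst interneuron-like nuclei followed at 96.3 ± 19.8 (n = 15), lower than the Pvalb class in 10 of 12 mice but overlapping in range. Cck interneuron-like nuclei held 41.5 ± 17.1 (n = 15), while Lamp5 and Vip interneuron-like nuclei held 2.22 ± 2.44 and 0.783 ± 2.13, with ranges that reached 0. The interneuron types thus differed in Oprd1 where all of them carried Oprm1.

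Among SPN-like nuclei Oprd1 separated the types named by their dopamine receptors. Drd2 SPN-like nuclei, which use enkephalin as their own peptide, held 66.2 and 78.8 CPM in NP mice, 27.9, 55.7 and 74.7 in control RE mice and 56.9, 57.4 and 78.1 in stress RE mice. Drd1 SPN-like nuclei held 0.535 ± 0.776 CPM (n = 8), and the lowest Drd2 value was above the highest Drd1 value of 2.14. Oprd1 was also low in habenula-like nuclei, at 0.480 ± 0.694 CPM (n = 12).

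Dentate granule-like nuclei held a modest level of Oprd1, 17.9 CPM ± 2.49 (13.7 to 23.6, n = 15). On average 24.7% of the nuclei of a mouse, they carried 5465 of the Oprd1 UMIs, or 56.4% pooled, and from 30.5% to 76.7% by mouse. A share of nuclei takes no account of their depth, and by level the whole punch held 9.97 ± 1.22 CPM (n = 15). The level was 25.5 CPM in the cluster with Trpc6 and 10.1 in the cluster with Dsp and Chst9, higher in the first in 15 of 15 mice, and the ranges of 20.8 to 32.8 and 7.78 to 12.6 did not overlap. CA1-like nuclei held 1.98 ± 1.05 and CA3-like nuclei 0.285 ± 0.238. Cortical-type nuclei held 14.0 ± 6.37 (n = 14).

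Oprk1, the κ receptor gene, was counted at 2354 UMIs, and its highest levels were in SPN-like nuclei. Drd2 SPN-like nuclei held 36.4 and 49.9 CPM in NP mice, 14.0, 37.1 and 103 in control RE mice and 33.7, 49.1 and 66.9 in stress RE mice. Drd1 SPN-like nuclei held 36.5 and 44.0, then 29.96, 38.5 and 62.5, and then 24.9, 44.3 and 53.3 CPM in the same order of groups. The extremes of 14.0 and 103 CPM came from control RE mice with 10 and 11 such nuclei, or 1 and 11 UMIs. The means, 48.7 ± 26.7 and 41.8 ± 12.2 (n = 8 each), overlapped, and the Drd2 type was higher in 4 of 8 mice.

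In the small Drd1 cluster with Tac1 and Pde1c Oprk1 was at 14.3 CPM against 43.7 in the larger one, lower in 4 of 4 mice, the reverse of Oprm1. GABAergic neurons of thalamic, pretectal or hypothalamic type held 14.0 ± 4.50 (n = 15). Within them a cluster with Otx2os1 and Rxfp1 among its leading genes held 39.5 CPM and one led by Ttn held 5.02, higher in the first in 11 of 11 mice. Sst interneuron-like nuclei held 10.3 ± 5.89 (n = 15), and the other interneuron classes were under 3 CPM. Granule-like nuclei, with 53 Oprk1 UMIs in 31371 nuclei, held 0.168 ± 0.140. In thalamic excitatory-like nuclei the class mean of 1.84 ± 1.27 joined a main cluster of 6686 nuclei at 1.12 CPM with 3 small clusters of 88, 139 and 57 nuclei at 25.8, 20.3 and 15.96 CPM, measured in 3, 5 and 3 mice. Of the 88 nuclei 54.5% came from 1 mouse.

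Oprl1, the nociceptin receptor gene, was counted at 6470 UMIs, spread over many classes. Habenula-like nuclei held 18.9 ± 8.93 CPM (n = 12), and GABAergic neurons of thalamic, pretectal or hypothalamic type 18.4 ± 4.83 (n = 15). In the latter the NP mice ran from 18.1 to 24.3 with a median of 21.2, control RE mice from 13.0 to 18.5 and stress RE mice from 9.12 to 25.6. Subiculum-like nuclei held 15.4 ± 7.91 (n = 13), thalamic excitatory-like 11.9 ± 1.63 (n = 15), cortical-type 11.0 ± 4.13 (n = 14), Sst interneuron-like 10.2 ± 4.90 and CA2-like 9.74 ± 4.57 (n = 15 each). Neighbours in this order overlapped in range throughout.

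Among glial classes Oprl1 was highest in the precursors. Nuclei like oligodendrocyte precursor cells (OPC), the dividing progenitors of myelinating cells, held 15.7 ± 4.51 CPM, from 8.77 to 26.5 over 15 mice, on 232 UMIs. Newly formed oligodendrocyte-like nuclei held 1.61 ± 2.57 and oligodendrocyte-like nuclei 1.72 ± 0.673, and the highest of the latter was 3.68. OPC-like nuclei held little of the other receptors, with 3.69 ± 2.44 CPM of Oprm1, 0.517 ± 0.657 of Oprd1 and 0.403 ± 0.525 of Oprk1.

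Counted by nuclei, at least 1 Oprm1 UMI was present in 56.2% of 1196 habenula-like nuclei (95% Wilson interval 53.4 to 59.0) with a median of 9440.5 UMIs each, and in 1.94% of 5772 CA1-like nuclei with a median of 13453. With every nucleus thinned to 1000 UMIs the habenula-like share was 24.3% and the CA1-like share 0.186%. An Oprd1 UMI was present in 78.2% of 298 Pvalb interneuron-like nuclei (73.2 to 82.5) and in 0.443% of 4739 CA3-like nuclei, at the like median depths of 16997 and 16806. Thinned, these shares were 13.4% and 0.0237%. An Oprk1 UMI was present in 30.3% of 806 Drd2 SPN-like nuclei (27.2 to 33.5, median 8603 UMIs) and in 0.163% of granule-like nuclei (median 8612), or 4.27% and 0.0183% when thinned. An Oprl1 UMI was present in 16.1% of habenula-like nuclei (14.1 to 18.2) and in 0.452% of oligodendrocyte-like nuclei, whose median was 2494 UMIs, or 1.69% and 0.187% when thinned. No correction for free RNA in the droplets was made here, so the lower share of each pair includes what free RNA leaves in nuclei with little or none of the gene, and the higher share exceeded it at both depths. Intervals cover counting error only.

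Receptor pairs were counted in the same nucleus in shares that differed by class, and in 4 cases the pair was in at least 10% of the nuclei of a class. Oprm1 and Oprd1 were both present in 148 of 298 Pvalb interneuron-like nuclei, where 138 would carry both if the UMIs of each fell independently, in 135 of 677 Sst interneuron-like nuclei (136 if independent) and in 91 of 611 Cck interneuron-like nuclei (50.5 if independent). Oprd1 and Oprk1 were both present in 123 of 806 Drd2 SPN-like nuclei (103 if independent). Other pairs were rarer: Oprm1 and Oprk1 shared 31 of 995 Drd1 SPN-like nuclei (39.3 if independent) and 87 of 6970 thalamic excitatory-like nuclei (24.6 if independent). Deep nuclei hold more UMIs of every gene, and the part of free RNA in these counts was not tested, so they are descriptions without a test.

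Over the 30 classes the genes most like each receptor were ranked by Pearson's r of log2(CPM + 1). For Oprm1 these were Gm27008, Gm46102 (r = 0.796), Gm15155, Tenm1 and Col25a1, and for Oprd1 Unc5d (0.705), Trpc6, Mypn, Stk32c and Gpr83. For Oprk1 they were Ric8b (0.871), Zar1l, Gm38575, Mhrt and Scn4b, and for Oprl1 Pianp (0.864), Fsd1, Ptprr, Map7d2 and Ina. The classes share libraries and differ in depth, and the values describe likeness of pattern only.

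The ligand precursor genes had their own class patterns. Penk was highest in Drd2 SPN-like nuclei at 429 CPM ± 126 (n = 8), the class with the third highest Oprd1. Mean Oprk1 was also highest there, but above Drd1 SPN-like nuclei in only 4 of 8 mice. Pdyn was highest in Drd1 SPN-like nuclei at 65.1 ± 10.1 (n = 8), and dentate granule-like nuclei, whose mossy fibres release dynorphin, followed at 8.42 ± 1.94 (n = 15) while holding almost no Oprk1. Pnoc was highest in Lamp5 interneuron-like nuclei at 46.7 ± 13.0 (n = 15), the interneuron class with the highest Oprm1. Oprl1, the nociceptin receptor gene, had a mean of 6.36 ± 2.93 CPM there. That was below Sst (10.2) and Cck (7.42) and above Pvalb (6.16) and Vip interneuron-like nuclei (5.33). Pomc had 562 UMIs in all, 0.571 ± 0.261 CPM in the whole punch, and no class with a clear level.

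In the whole punch, with all kept nuclei of a mouse summed, no receptor passed the test for a difference between groups. Oprm1 ran from 24.7 to 64.7 CPM in NP (median 34.8), stood at 23.2, 36.8, 44.1 and 48.1 in control RE and at 23.4, 25.3, 34.3, 40.1 and 56.9 in stress RE. Oprd1 ran from 7.20 to 11.3 in NP (median 9.40), stood at 8.98, 9.68, 10.0 and 11.2 in control RE and at 10.1, 10.2, 10.2, 11.1 and 11.9 in stress RE. The groups overlapped for both genes. Fewer cells of a type and less RNA per cell cannot be told apart in such sums.

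Oprk1 ran from 1.36 to 3.43 CPM in NP (median 2.48), stood at 0.996, 1.22, 1.87 and 2.48 in control RE and at 1.12, 1.68, 1.85, 3.25 and 7.44 in stress RE. The highest mouse, stress RE 75, also had the highest share of SPN-like nuclei, 7.49% of its nuclei against 0% to 0.933% in control RE. Oprl1 ran from 4.65 to 9.58 CPM in NP (median 7.92), stood at 4.79, 5.27, 5.41 and 7.20 in control RE and at 5.21, 5.93, 6.17, 8.72 and 9.06 in stress RE. Its lowest mouse, NP 35, had 5.32% SPN-like nuclei and 0.190% habenula-like nuclei, where the other NP mice had 0.885% to 4.78% habenula-like nuclei. The part of these shares in the receptor levels was not tested beyond leaving mice or nuclei out.

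**Figure D4:**
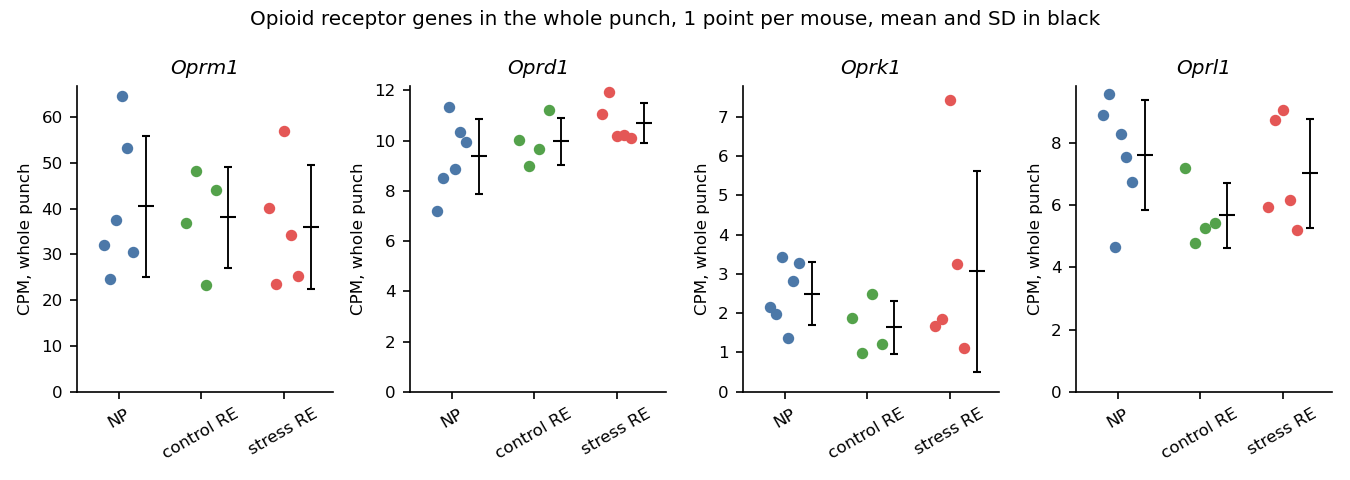
Level of each receptor gene in the whole punch, in CPM from 0, 1 panel per gene. Points are mice by group and the black mark and bar are the mean and SD; the groups overlap in all panels, and 1 stress RE mouse at 7.44 CPM sets the wide bar of Oprk1.

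By the quasi-likelihood test of edgeR with Benjamini-Hochberg adjustment over 21165 genes, 0 of the 4 receptors passed an adjusted p of 0.05 in any of the 3 comparisons, and 0 had an unadjusted p under 0.05 there. DESeq2 also called 0 of 4 in each, with 0 under 0.05 unadjusted. Among all genes 0.00472% were called for control RE against NP and 0% for each of the other comparisons, and 3.97%, 0.827% and 4% had an unadjusted p under 0.05 for control RE against NP, stress RE against control RE and stress RE against NP.

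For control RE against NP the log2 fold changes were -0.02 for Oprm1 (SE 0.283, approximate 95% interval -0.57 to 0.53), 0.15 for Oprd1 (-0.13 to 0.44), -0.55 for Oprk1 (-1.42 to 0.31) and -0.35 for Oprl1 (-0.72 to 0.03). For stress RE against control RE they were -0.11 for Oprm1 (-0.68 to 0.46), 0.10 for Oprd1 (-0.19 to 0.40), 0.83 for Oprk1 (-0.07 to 1.73) and 0.30 for Oprl1 (-0.09 to 0.69). For stress RE against NP they were -0.13 for Oprm1 (-0.65 to 0.39), 0.26 for Oprd1 (-0.01 to 0.52), 0.28 for Oprk1 (-0.51 to 1.07) and -0.05 for Oprl1 (-0.40 to 0.30). The intervals bound Oprd1 most tightly and leave changes of Oprk1 over 2-fold within reach.

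Within batches Oprm1 gave opposite signs for stress RE against control RE, -0.63 in batch 2 and 0.69 in batch 3, while Oprk1 gave 0.98 and 1.07, Oprl1 0.16 and 0.26 and Oprd1 0.01 and 0.11. For stress RE against NP Oprk1 gave -0.51 and 0.97, Oprm1 -0.61 and 0.03, Oprd1 -0.09 and 0.18 and Oprl1 -0.10 and -0.00. For control RE against NP Oprk1 gave -1.50 and -0.09, Oprm1 0.02 and -0.67, Oprd1 -0.10 and 0.07 and Oprl1 -0.26 and -0.27. Oprm1 and Oprd1 thus changed sign between batches in both of the comparisons with NP, and Oprk1 for stress RE against NP. Oprk1 for stress RE against control RE was 0.27 without stress RE 75, the lowest value when any mouse was left out, and for stress RE against NP it was -0.27 without that mouse. Without habenula-like nuclei Oprm1 was 0.30 for control RE against NP and 0.13 for stress RE against NP, both opposite in sign to the values with them.

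Class by class, a test needed at least 3 mice in both groups compared and a receptor count past the edgeR filter on low counts. So 103 tests of a receptor in a class could be made, in 19 classes, and edgeR called 0 of them. For control RE against NP these were 32 tests (1 unadjusted p under 0.05), for stress RE against control RE 37 (1) and for stress RE against NP 34 (3). DESeq2 called 0 as well, with 1, 1 and 2 under 0.05 unadjusted, and gave no adjusted p for 3, 5 and 0 of the tests. Over all pairs of gene and class 0.000938%, 0.00343% and 0% were called, and 3.38%, 2.88% and 3.77% had an unadjusted p under 0.05, so 5 of 103 receptor tests lay near the background of 3.34% over all 3 comparisons, where 0.00149% were called. The median log2 fold change of the receptor tests was -0.06, 0.11 and 0.03. For all genes a median was taken within each class, and the median of these class values was -0.01, 0.00 and -0.00.

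In the testable class where each receptor was highest the groups also overlapped. Oprm1 in Lamp5 interneuron-like nuclei had 66.2 to 122 CPM in NP (median 109), 95.6 to 154 in control RE and 46.6 to 120 in stress RE, with log2 fold changes of 0.36 (SE 0.209) for control RE against NP and -0.43 (SE 0.215) for stress RE against control RE. The latter was -0.26 without stress RE 70, the mouse at 46.6 CPM. In habenula-like nuclei stress RE against NP gave -0.19 (SE 0.242), with values from -0.40 without stress RE 43 to -0.03 without NP 35, and -0.04 without stress RE 77. Oprd1 in Pvalb interneuron-like nuclei gave -0.28, 0.25 and -0.04 for the comparisons in the order above, and Oprk1 in Drd2 SPN-like nuclei gave -0.10 (SE 0.434) for stress RE against control RE. In the thalamic, pretectal or hypothalamic GABAergic class Oprk1 gave 0.19 (SE 0.262) for control RE against NP and 0.30 (SE 0.249) for stress RE against NP. Oprl1 in that class gave -0.39 (SE 0.216) for control RE against NP and 0.22 (SE 0.226) for stress RE against control RE. In habenula-like nuclei Oprl1 gave -0.19 (SE 0.405) for stress RE against NP. All adjusted p-values of these tests were 0.928 or above (edgeR, Benjamini-Hochberg).

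The 5 tests with an unadjusted p under 0.05 were all of Oprm1. In Drd1 SPN-like nuclei Oprm1 was at 0, 12.8 and 16.04 CPM in control RE and at 26.8, 28.4 and 67.4 CPM in stress RE, while NP mice had 16.9 and 18.9. The log2 fold change of stress RE against control RE was 1.62 (SE 0.564, adjusted p = 0.310, edgeR), in a class where 11.2% of genes had an unadjusted p under 0.05. Without a filter on low counts it was 1.67 with an adjusted p of 0.0289, the only alternative in which a receptor was called, and over the others, mice left out included, the adjusted p was 0.245 to 0.326. The Tac1 and Pde1c cluster, which carries most Oprm1 of this class, made up 0%, 1.89% and 17.2% of the class in control RE and 12.6%, 15.9% and 21.3% in stress RE. Its part in the difference was not tested, and the 3 control RE values rest on 0, 6 and 5 Oprm1 UMIs in 12, 53 and 29 nuclei. The library at 0 had so few UMIs that a count of 0 allows a level of up to 20.8 CPM, and leaving out any control RE or stress RE mouse of this class left too few for the test.

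In cortical-type excitatory-like nuclei Oprm1 ran from 2.63 to 123 CPM in NP (median 23.4), and was 47.7, 119, 182 and 212 in control RE. The log2 fold change was 2.19 (SE 0.949, adjusted p = 0.659, edgeR), where 7.16% of genes of this class had an unadjusted p under 0.05, 1.30 with batch as a term and 1.51 with doublets kept. The class joins 2 clusters, of 1483 and 446 nuclei. In the 9 mice with enough of both, Oprm1 was at 120 CPM in the larger and 15.3 in the smaller. It was higher in the larger in 8 of 9, with ranges of 0 to 295.3 and 4.06 to 32.4 CPM. The larger cluster made up 0%, 40.5%, 46.9%, 53.8%, 59.6% and 79.4% of the class in NP mice and 52.9%, 68.3%, 77.3% and 93.6% in control RE mice. The part of this mix in the difference was not tested. Within the larger cluster Oprm1 also differed between mice. It was 0, 26.96, 34.2 and 82.9 CPM in the NP mice with at least 10 of its nuclei. Control RE mice had 55.4, 125.7, 290.1 and 295.3, so the groups overlapped. Ipcef1 there, with mice in the same order, was 14.9, 19.5, 183.96 and 162.3 CPM in NP. In control RE it was 115.1, 183.9, 229.4 and 201.8. The part of Ipcef1 and of the differences within the cluster was not tested either. In Pvalb interneuron-like nuclei Oprm1 was 48.5, 77.01 and 83.7 CPM in NP and 70.6, 77.9, 90.3, 107 and 177 in stress RE, a log2 fold change of 0.69 (SE 0.294, adjusted p = 0.944, background 4.89%), and 0.47 without the mouse at 177, stress RE 70. Both pairs of groups overlapped.

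The remaining pair of tests compared stress RE with NP in classes where Oprm1 was near the floor, and in both the groups overlapped. In CA3-like nuclei it was 2.14 to 5.57 CPM in NP (median 3.09) and 0.253, 0.621, 1.37, 1.46 and 4.84 in stress RE, a log2 fold change of -0.96 (SE 0.446, adjusted p = 0.978, background 3.64%). In oligodendrocyte-like nuclei it was 4.25 to 11.7 in NP (median 6.02) and 2.83, 2.88, 4.37, 5.22 and 5.58 in stress RE, a log2 fold change of -0.68 (SE 0.303, adjusted p = 0.997, background 4.54%). With doublets kept these values were -0.25 and -0.15. Without stress RE 75, the mouse at 4.84, the CA3-like value was -1.63, and without NP 63, the mouse at 11.7, the oligodendrocyte-like value was -0.40.

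**Figure D5:**
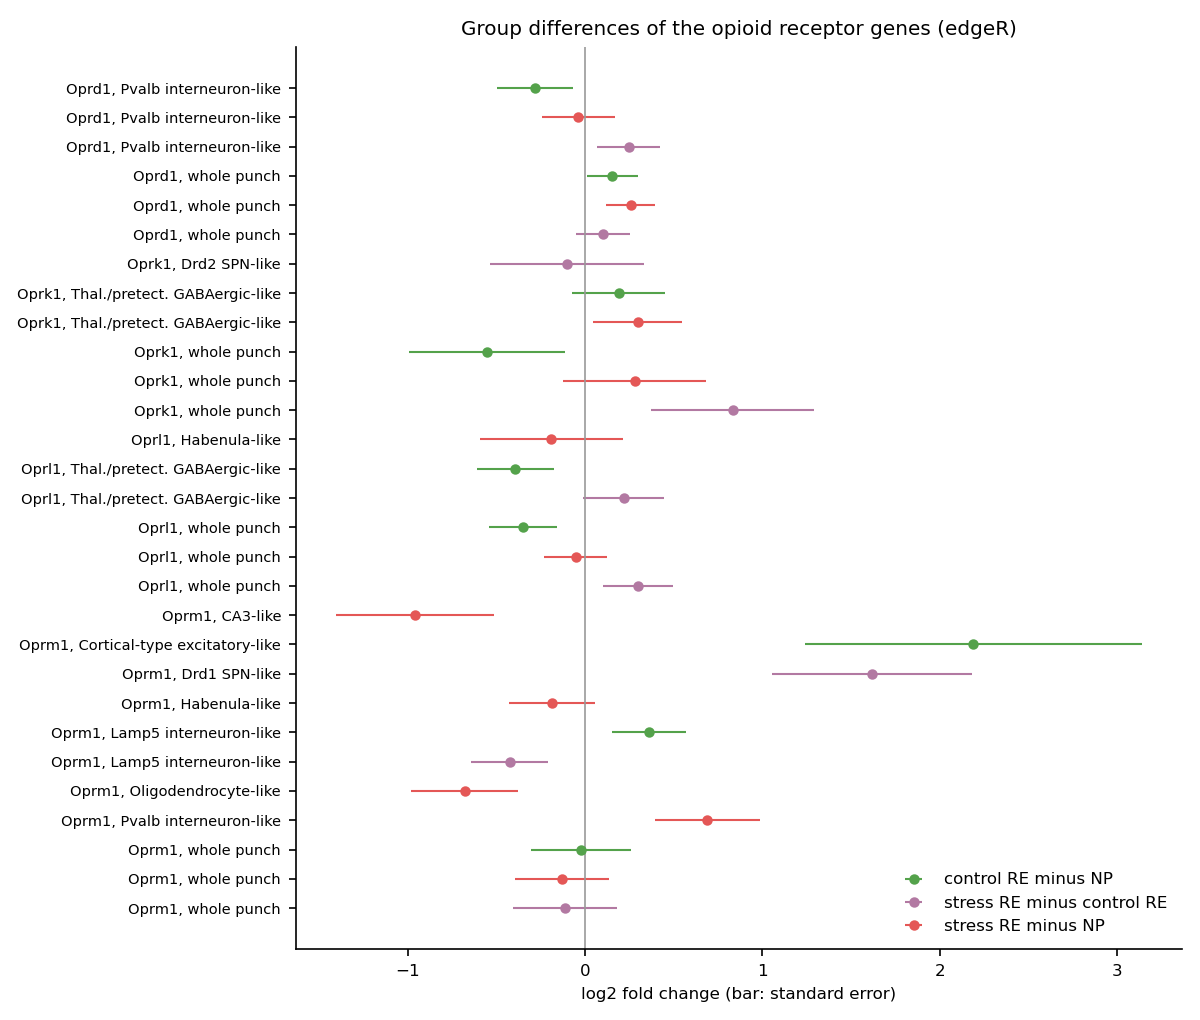
Log2 fold change of the receptor genes between groups, for the whole punch, the testable class with the highest level and each test with an unadjusted p under 0.05. Points are edgeR estimates, bars are 1 standard error and colours give the comparison; whole-punch points lie between -0.55 and 0.83, and the largest values, 2.19 and 1.62, belong to Oprm1 in cortical-type and Drd1 SPN-like nuclei.

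The other genes of the pathway, 42 on 6 lists, gave 0 calls by edgeR in either direction, in the whole punch or in any class. Unadjusted p-values under 0.05 numbered 2, 3 and 1 of 42 in the whole punch for control RE against NP, stress RE against control RE and stress RE against NP, or 4.76%, 7.14% and 2.38%, where the shares over all genes were 3.97%, 0.827% and 4%. In classes they numbered 20 of 650, 32 of 723 and 32 of 689, or 3.08%, 4.43% and 4.64%, where the shares over all pairs were 3.38%, 2.88% and 3.77%. Gi/o protein genes, inwardly rectifying potassium channel genes, adenylyl cyclase and presynaptic calcium channel genes, and the genes of receptor desensitization and RGS proteins each had 0 in the whole punch in all 3 comparisons. Peptide processing and breakdown genes had 2, 1 and 1 of 10. The ligand precursors had 0, 2 and 0 of 4.

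The 2 precursor genes were Penk and Pnoc, both for stress RE against control RE. Penk was 3.18, 3.41, 3.67 and 4.55 CPM in control RE and 2.56, 3.17, 7.25, 16.2 and 42.96 in stress RE, a log2 fold change of 1.87 (SE 0.731, adjusted p = 1.00, edgeR). This value rested largely on stress RE 75, the mouse at 42.96 CPM, without which it was 0.97 (SE 0.613). The 3 highest stress RE mice were also those with SPN-like nuclei at 1.07%, 3.24% and 7.49% of their nuclei. Pnoc was 1.64, 1.95, 2.02 and 2.09 in control RE and 1.46, 2.93, 3.04, 3.22 and 4.46 in stress RE, a log2 fold change of 0.63 (SE 0.264, adjusted p = 1.00), and 0.49 without stress RE 75.

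Most of the other whole-punch values of the precursors moved with single mice. Against NP, Penk gave -0.71 in control RE (-0.08 without NP 35, the NP mouse with most Penk) and 1.15 in stress RE (0.26 without stress RE 75, 1.78 without NP 35). Pnoc gave -0.42 in control RE (-0.51 to -0.31 with a mouse left out) and 0.21 in stress RE (0.08 without stress RE 75). Pdyn gave -0.24 for control RE against NP (-0.04 without NP 35), 0.35 for stress RE against control RE (0.11 without stress RE 75) and 0.11 for stress RE against NP (-0.12 without stress RE 75). Pomc gave 0.35 (0.20 without control RE 66), 0.02 (-0.33 without stress RE 75) and 0.37 (0.02 without stress RE 75) in the same order. No precursor passed an adjusted p of 0.05 in the whole punch, so none of these differences was called.

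In classes 0 of 12 precursor tests of control RE against NP and 1 of 12 of stress RE against NP had an unadjusted p under 0.05, the latter Penk in the thalamic, pretectal or hypothalamic GABAergic class at 1.51 (1.04 without stress RE 43), where the backgrounds were 3.38% and 3.77%. For stress RE against control RE 6 of 15 had one, where the background was 2.88%. They included Penk in Drd2 SPN-like nuclei at 0.65 (SE 0.201, adjusted p = 0.389) and Pnoc in Lamp5 interneuron-like nuclei at 0.57 (SE 0.211, adjusted p = 1.00). The others were Penk in oligodendrocyte-like, CA1-like and granule-like nuclei and Pnoc in the thalamic, pretectal or hypothalamic GABAergic class. Without stress RE 75, 1 of the 5 that were refitted kept an unadjusted p under 0.05, Penk in CA1-like nuclei at 0.53, and Penk in oligodendrocyte-like nuclei went from 2.11 to 0.81 and in granule-like nuclei from 0.75 to 0.39. The Pnoc values moved less, from 0.57 to 0.44 in Lamp5 interneuron-like nuclei and from 1.07 to 0.81 in the GABAergic class. Penk in Drd2 SPN-like nuclei was not refitted, since that left 2 stress RE mice. In the other classes where a precursor was highest, Pnoc in Lamp5 interneuron-like nuclei gave -0.34 for control RE against NP and 0.23 (0.10 without stress RE 75) for stress RE against NP, and Pdyn in Drd1 SPN-like nuclei gave 0.13 (SE 0.229) for stress RE against control RE. The part of RNA from SPN-like nuclei in these values was not tested.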

How the data were processed

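Nuclei of dHF micropunches from 15 mice were profiled by droplet single-nucleus RNA-seq, 1 library per mouse. The deposited matrices hold raw UMI counts per gene and barcode, which the authors made with Cell Ranger. The submitters' processing notes name version 7.1.0 and the file headers 7.0.0. The strand setting is not given in the sources used here. Libraries held 40602582 to 96211264 UMIs, which sets the precision of each count.

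Filters on genes (at least 200) and mitochondrial UMIs (at most 5%) removed 113 nuclei, and doublet scoring removed 10005 more, at 0.8% per 1000 barcodes. With scanpy 1.11.5, 2000 variable genes, 30 principal components and Leiden clustering at resolution 1 gave 67 clusters, with receptor and precursor genes left out of the variable genes, of which 53 were named from marker lists. Cut-offs for naming were chosen once clusters had been seen. The study's methods name SoupX for free RNA, and no such correction was made here. UMIs were summed per mouse and class. A comparison was tested in classes with at least 10 nuclei in at least 3 mice of both its groups. Genes with low counts were first removed by the filter of edgeR 4.0.16. Its quasi-likelihood test was then used (all groups in 1 fit, Benjamini-Hochberg adjustment over all genes of a class past the filter, adjusted p of 0.05). The steps were tested on simulated data. Alternatives were DESeq2 1.42.0, RLE factors, no filter on low counts, batch as a term, doublets kept, a minimum of 20 nuclei, counts pooled over mice, nuclei thinned to 1000 UMIs, each mouse left out and, chosen after seeing the data, the opposite-strand level as a term, sums without habenula-like nuclei and, for precursors, each mouse left out. Relations across mice used 100000 permutations, two-sided.

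The members and lists were chosen with earlier results of these data known. Receptors were described in every class and the whole punch. Fold changes are given for each receptor in the whole punch, in the testable class with its highest mean, and wherever the unadjusted p was under 0.05, and precursors in the whole punch and, but for Pomc, in the class with the highest mean. The genes most like each receptor are the 5 with the highest Pearson's r among genes reaching 20 CPM in a class. Clusters' leading genes and the other precursor tests were named after their values were seen. The labels give separate mice, so p-values measure the spread between animals.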

Additional observations from a re-analysis of the deposited data

Results flagged for a closer look

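Of 56 groups of receptor or precursor levels checked, 4 held a mouse far from the others of its group, where chance gives about 1 in 20. Oprm1 in CA3-like nuclei was 4.84 CPM in stress RE 75, and the next mouse of its group had 1.46. Oprm1 in habenula-like nuclei was 610 CPM in NP 35, from 16 nuclei, and the next NP mouse had 381. Oprm1 in Lamp5 interneuron-like nuclei was 46.6 CPM in stress RE 70, from 54 nuclei, and the next stress RE mouse had 101. Penk in the whole punch was 17.4 CPM in NP 35, which had 5.32% SPN-like nuclei, and the next NP mouse had 6.24.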

How the results depend on the processing

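No receptor was called in the whole punch or in classes under any alternative, except 1 class call for stress RE against control RE without a filter on low counts, Oprm1 in Drd1 SPN-like nuclei at 1.67. With any mouse left out these counts were 0. Oprm1 in Drd1 SPN-like nuclei could not be tested without a control RE or stress RE mouse of that class, so the 0 does not cover those cases. Thinned to 1000 UMIs, the shares of nuclei with a UMI were 24.3% for Oprm1 in habenula-like, 13.4% for Oprd1 in Pvalb interneuron-like, 4.27% for Oprk1 in Drd2 SPN-like and 1.69% for Oprl1 in habenula-like nuclei. Mean levels in these classes with a mouse left out were 329 to 366, 137 to 145, 41.0 to 53.7 and 17.4 to 20.6 CPM. Of the fold changes under other settings 184 kept their direction and side of the threshold, 10 changed sign and 1 passed the threshold, and with a mouse left out 403 kept both and 11 changed sign. The 403 include fits that stayed as they were, because the mouse had too few nuclei of the class to be in them. For Oprm1 in the whole punch, control RE against NP was 0.000878 with DESeq2, 0.000256 with RLE factors, 0.30 without habenula-like nuclei and -0.15 to 0.15 with a mouse left out. Stress RE against control RE was 0.024 with batch as a term, 0.054 with the opposite-strand term and -0.29 to 0.017 with a mouse left out, and stress RE against NP was 0.13 without habenula-like nuclei and -0.30 to 0.033 with a mouse left out. Oprd1 in Pvalb interneuron-like nuclei, stress RE against NP, was 0.000321 without a filter. Oprk1 in Drd2 SPN-like nuclei, stress RE against control RE, was 0.017 without a filter, 0.013 with batch and 0.10 with the opposite-strand term. With a mouse left out Oprk1 ran from -0.011 to 0.32 in the thalamic, pretectal or hypothalamic GABAergic class (control RE against NP) and from -0.27 to 0.48 in the whole punch (stress RE against NP), and Oprl1 from -0.17 to 0.014 in the whole punch and -0.33 to 0.15 in habenula-like nuclei (stress RE against NP). The cause of these changes was not tested. No paired analysis was possible because the labels give every mouse its own number, shared by no other group. Classes with few nuclei, low receptor counts and a batch without control RE mice limit what differences could be seen.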
